A study of Mus musculus with 10 samples.

Results

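The mitochondrial ribosomal protein genes were followed in ribosome-bound RNA of Drd2-Cre cells from dorsal and ventral hippocampus. Members were chosen by name alone: every protein-coding Ensembl identifier in the count files whose mouse symbol in the GRCm38 annotation starts with Mrpl or Mrps and a number. The rule gave 78 genes of 54838 identifiers, 49 for the large (39S) and 29 for the small (28S) subunit by symbol, and 76 of them passed the expression filter that left 16806 tested genes. Translating ribosome affinity purification (TRAP) precipitates cytosolic ribosomes that carry an EGFP-tagged L10a protein, together with the mRNA they hold, from cells that express Cre. All 10 libraries came from C57BL/6 mice of the genotype Drd2-Cre;Eef1a1LSL.eGFPL10a/+ at about 10 weeks, 5 from dorsal and 5 from ventral hippocampus, each from the pooled tissue of 5 mice, and both parts were dissected from the same set of mice. Every animal carried the transgenes and none was treated, so that position in the hippocampus was the difference between the groups. Drd2-Cre drives the tag mainly in hilar mossy cells (MCs), the excitatory neurons of the dentate hilus, but it is also active in scattered GABAergic interneurons and in ventral subiculum neurons, and the ventral subiculum was removed at dissection.

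Mitochondria carry their own ribosome, which makes the few proteins encoded by mitochondrial DNA, all of them core subunits of the oxidative phosphorylation complexes. The ribosomal RNAs come from the mitochondrial genome, while every protein of the mitoribosome is encoded in the nucleus, translated on cytosolic ribosomes and imported. The mitoribosome descends from a bacterial one, has lost part of the bacterial RNA and has gained many proteins that bacteria lack. Some proteins kept their bacterial place, such as those around the peptidyl transferase centre, the exit tunnel and the decoding centre, and others occur in mitochondria alone. Levels below are read counts scaled by TMM to library totals (CPM, the share of a library's reads), so that they describe shares of the precipitated RNA, and in pooled tissue fewer cells of a type and less RNA per cell cannot be told apart.

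Counts on genes ranged from 11138676 to 20594364 per library, at which 3 counts equal 0.146 to 0.269 CPM, and tested members had between 13 and 4556 counts in a library. Reads outside annotated genes made up 21.8% to 33.9% of the dorsal and 11.6% to 19.3% of the ventral libraries. The summed level of 10 mossy cell markers overlapped between the groups, at 2002 to 2181 CPM in dorsal and 1999 to 2291 in ventral libraries, and none of them was at 0 in all libraries. Single mossy cell markers went both ways, with 3 called ventral-enriched and 3 dorsal-enriched and log2 fold changes of dorsal over ventral from -3.24 to 1.05. Gria2 was at 1143 ± 98.0 CPM in dorsal and 651 ± 73.0 in ventral libraries, and Calb2 at 65.2 ± 9.32 and 616 ± 94.6 CPM. The sum joins such opposite differences, so that its overlap does not show equal mossy cell content. Of all tested genes 9.85% were called ventral-enriched and 15.7% dorsal-enriched. Summed oligodendrocyte markers were higher in every dorsal than in any ventral library (2455 to 2922 against 911 to 1748 CPM, 4 of 8 called dorsal-enriched), as were astrocyte markers (1854 to 2114 against 667 to 1219 CPM, 5 of 7 called dorsal-enriched and 1 ventral-enriched). The 9 interneuron markers summed to 3486 to 4488 CPM in dorsal and 4260 to 5464 in ventral libraries, 3 of them were called ventral-enriched, and their median log2 fold change was -0.46. With level corrected for GC content and exonic length these 3 calls were lost, and the median was -0.30. Of the GABA-synthesis enzymes in this list, Gad2 was at 2853 ± 453 CPM in dorsal and 3174 ± 407 in ventral libraries (adjusted p = 0.324, edgeR), and Gad1 at 257 ± 43.8 and 355 ± 35.4 CPM (adjusted p = 0.0103, edgeR). Summed granule cell, CA pyramidal cell, microglia and endothelial markers overlapped between the groups. The part of any of these in the results on the mitoribosome was not tested.

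Mitochondrial ribosomal protein transcripts were more abundant in ventral than in dorsal libraries. Their summed level was 2511, 2316, 2419, 2416 and 2414 CPM in dorsal replicates 1 to 5. In ventral replicates 1 to 5 it was 3402, 3277, 3208, 3130 and 3234 CPM. The groups did not overlap, with means ± SD over 5 libraries of 2415 ± 68.9 CPM (dorsal) and 3250 ± 100.5 CPM (ventral). Enrichment was called where the quasi-likelihood test of edgeR gave an adjusted p below 0.05 and the log2 ratio between group means (CPM plus 1) was beyond 0.58 in either direction. By this rule 21 of the 76 tested members (27.6%) were called ventral-enriched, against 9.85% of all tested genes. By edgeR 0 were called dorsal-enriched, against 15.7% of all tested genes, while 1 had an unadjusted p below 0.05 on the dorsal side, and DESeq2 called 0. With the adjusted p alone, 39 members (51.3%) were higher in ventral libraries, where the background was 14.6%. The log2 fold change of dorsal over ventral, negative where the ventral level is higher, was below 0 in 72 of 76 members, against 50.4% of tested genes. Its median was -0.46 over the members, with quartiles of -0.67 and -0.29, and -0.0044 over all tested genes. Shares of all tested genes, here and below, include genes that are not protein-coding, whereas all members are protein-coding. Among the 13549 tested protein-coding genes 10.3% were called ventral-enriched and 11.4% dorsal-enriched. In this narrower background the ventral share by adjusted p alone was 16.1%. Log2 fold changes below 0 made up 53.3% of it, with a median of -0.041. In 24 members every ventral library exceeded every dorsal one, a separation found in 8.36% of tested genes. The opposite separation was shown by 1 member, Mrpl48, and by 1649 of the 16806 tested genes.

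**Figure D1:**
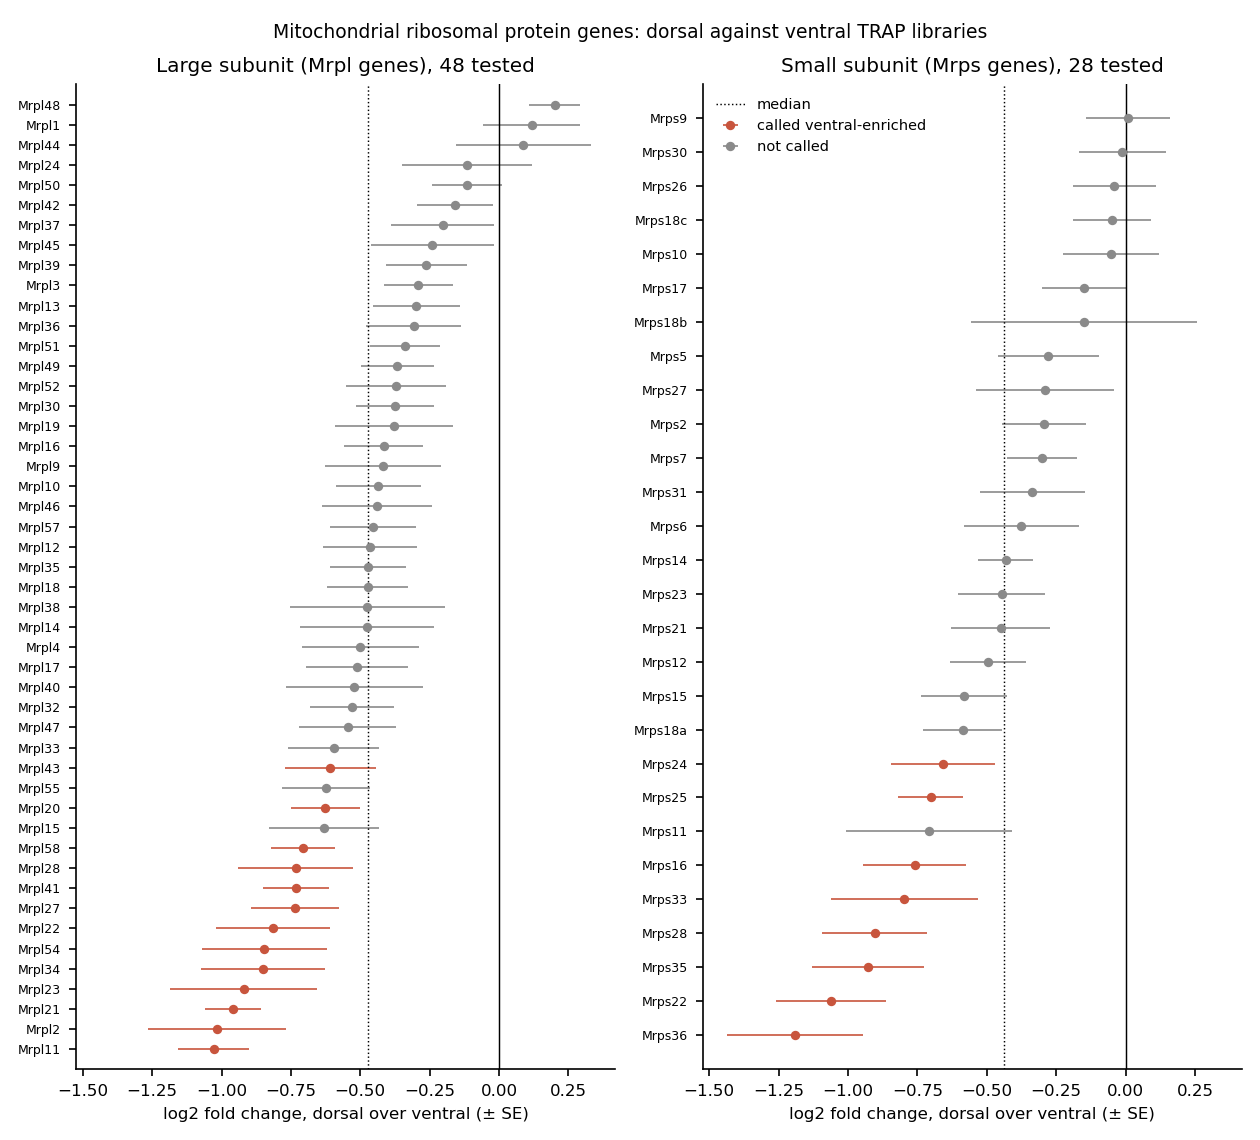
Log2 fold change of dorsal over ventral level (x axis) with its standard error for each tested member, 48 of the large subunit on the left and 28 of the small subunit on the right. Red points are called ventral-enriched, the dotted line is the median of each subunit (-0.47 and -0.44), and 72 of the 76 points lie left of 0.

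**Figure D2:**
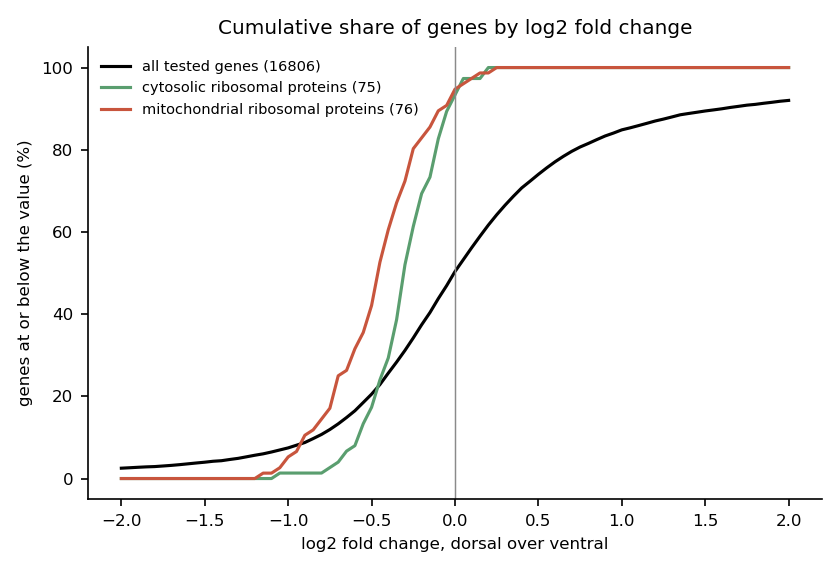
Share of genes (y axis, percent) at or below each log2 fold change of dorsal over ventral (x axis), for 76 members, 75 cytosolic ribosomal protein genes and 16806 tested genes. At 0 the member curve has reached 94.7%, that of the cytosolic ribosomal protein genes 93.3% and that of all tested genes 50.4%.

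Large and small subunit genes gave similar shares of called genes and similar medians. Of all tested genes 9.85% were called ventral-enriched, and 14.6% had an adjusted p below 0.05 (edgeR) on the ventral side. A log2 fold change below 0 was found in 50.4% of all tested genes. For the large subunit 13 of 48 tested genes were called ventral-enriched, 26 had an adjusted p below 0.05 on the ventral side, 45 had a log2 fold change below 0, and the median was -0.47. For the small subunit these counts were 8, 13 and 27 of 28, and the median was -0.44. Summed per kilobase of exonic length, the large subunit stood at 739 ± 8.73 CPM per kb in dorsal and 1039 ± 22.4 in ventral libraries, and the small subunit at 355 ± 16.1 and 496 ± 23.8 (SD, n = 5). Neither sum overlapped between the groups. The ratio of the large to the small sum was 2.16, 2.17, 1.99, 2.05 and 2.06 in dorsal replicates 1 to 5 and 1.98, 2.01, 2.24, 2.10 and 2.15 in ventral replicates 1 to 5. These values overlapped, and their means of 2.09 ± 0.0761 and 2.10 ± 0.105 differed by less than the spread within a group. The lowest ventral ratio was that of replicate 1. In this library the small subunit gene Mrps33 stood at 208 CPM, against 83.5 to 86.3 CPM in the other ventral libraries. Without replicate 1 the ventral mean ratio was 2.13, and the part of Mrps33 alone in the ratio was not tested. The symbols do not follow the structure everywhere, since Mrps18a and Mrps30 sit in the large subunit and Mrps36 is a subunit of the 2-oxoglutarate dehydrogenase complex. Grouped by structure, 13 of 50 large and 7 of 25 small subunit genes were called, with medians of -0.47 and -0.43.

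**Figure D3:**
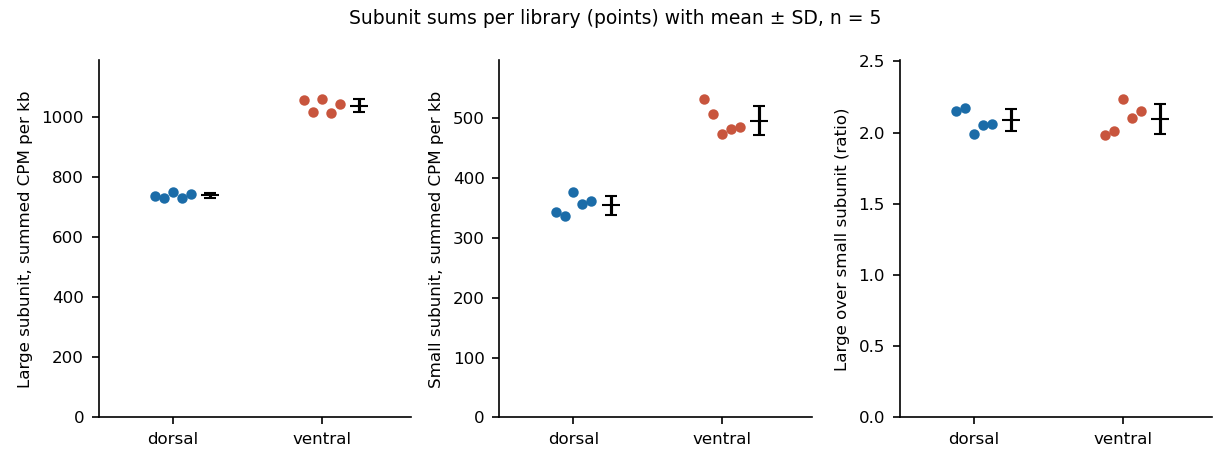
Summed level of the large subunit genes, summed level of the small subunit genes (both in CPM per kb of exonic length) and their ratio, for each of 5 dorsal and 5 ventral libraries (points) with mean ± SD. Both sums are higher in every ventral library, whereas the ratios range from 1.99 to 2.17 in dorsal and from 1.98 to 2.24 in ventral libraries.

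Genes with and without a bacterial counterpart were both represented. Of 48 tested members with a counterpart in the bacterial ribosome 12 were called ventral-enriched (median log2 fold change -0.47), and of 27 found in mitochondria alone 8 were called, with a median of -0.37. Within the large subunit by structure, 9 of 31 conserved genes (median -0.51) and 4 of 19 mitochondrial genes (median -0.37) were called. Within the small subunit the order was the other way, with 3 of 17 conserved genes (median -0.38) and 4 of 8 mitochondrial genes (median -0.57). Of all tested genes 9.85% were called ventral-enriched, and the smaller classes hold few genes. These classes were drawn up after the data had been seen, and the differences between them were not tested.

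The 10 called members with the largest differences and no overlap between the groups came from both subunits. Mrps36 (chr13:100735955-100744659, minus strand), named for the small subunit but part of the 2-oxoglutarate dehydrogenase complex, was at 5.55, 5.85, 8.25, 8.41 and 7.39 CPM in the dorsal and 14.3, 8.63, 20.9, 19.5 and 17.8 in the ventral libraries. Ventral replicate 2 lay just above the highest dorsal value and the other 4 ventral libraries were well clear of it. The difference was the largest among members, at a log2 fold change of -1.19 ± 0.24 (SE) with an adjusted p of 0.00276 in edgeR. Mrps22 (chr9:98588730-98601660, minus strand), a small subunit protein without a bacterial counterpart, was at 18.4, 14.1, 10.9, 15.6 and 13.9 CPM in dorsal and 33.4, 42.8, 23.4, 25.8 and 26.7 in ventral libraries. Every ventral library lay above 23 CPM and every dorsal one below 19, and the log2 fold change was -1.06 ± 0.20 (adjusted p = 0.0015, edgeR). Mrps28 (chr3:8802146-8923918, minus strand), a further small subunit gene, was at 9.50, 10.9, 11.4, 8.17 and 10.3 CPM in dorsal and 14.1, 24.7, 20.3, 18.7 and 18.0 in ventral libraries. Its log2 fold change was -0.90 ± 0.19 (adjusted p = 0.0032, edgeR), and ventral replicate 1 was the closest to the dorsal values.

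Mrpl11, Mrpl21 and Mrpl2 were the large subunit genes with the largest differences. Mrpl11 (chr19:4962147-4966999, plus strand), whose protein forms the base of the stalk that factors bind, was at 29.8, 31.5, 34.6, 31.3 and 31.0 CPM in dorsal and 54.0, 57.4, 72.6, 64.6 and 74.1 in ventral libraries. Its dorsal values spanned less than 5 CPM and its ventral values about 20 CPM, and the log2 fold change was -1.03 ± 0.13 (adjusted p = 0.00011, edgeR). Mrpl21 (chr19:3282901-3292837, plus strand), a conserved protein of the large subunit, was at 54.3, 50.5, 47.6, 52.1 and 55.2 CPM in dorsal and 106, 94.1, 106, 101 and 96.5 in ventral libraries. The fitted level was 1.94 times higher in ventral libraries, and the log2 fold change of -0.96 ± 0.10 had the smallest adjusted p of the members (3.07e-05, edgeR). Mrpl2 (chr17:46646229-46650139, plus strand), a conserved core protein beside the peptidyl transferase centre, was at 3.67, 7.93, 8.65, 8.11 and 6.52 CPM in dorsal and 10.5, 21.9, 13.1, 14.7 and 14.0 in ventral libraries. Dorsal replicate 1 was the lowest and ventral replicate 2 the highest, and the log2 fold change was -1.02 ± 0.25 (adjusted p = 0.00751, edgeR).

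The large subunit genes with the next largest differences among called members without overlap were Mrpl23, Mrpl34, Mrpl22 and Mrpl27. Mrpl22 (chr11:58171661-58179565, plus strand), whose bacterial counterpart lines the tunnel, was at 6.40, 8.32, 6.00, 6.85 and 7.31 CPM in dorsal and 10.7, 10.7, 13.2, 10.5 and 15.8 in ventral libraries, with a log2 fold change of -0.81 ± 0.21 (adjusted p = 0.009, edgeR). Mrpl23 (chr7:142532686-142540747, plus strand), whose counterpart sits at the tunnel exit, was at 2.63, 3.90, 2.79, 2.70 and 3.69 CPM in dorsal and 5.99, 4.75, 4.64, 5.95 and 7.55 in ventral libraries, with a log2 fold change of -0.92 ± 0.26 (adjusted p = 0.0173, edgeR). The groups were apart in both genes, and per kilobase Mrpl23 was among the lowest members. The call of Mrpl23 was lost without dorsal replicate 4 or without ventral replicate 5, with adjusted p of 0.0536 and 0.0609 in edgeR. Mrpl34 (chr8:71464959-71465747, plus strand), a short conserved protein, was at 8.28, 15.7, 15.2, 8.41 and 13.3 CPM in dorsal and 18.5, 26.7, 21.3, 28.3 and 17.3 in ventral libraries, with a log2 fold change of -0.85 ± 0.22 (adjusted p = 0.0109, edgeR). Mrpl27 (chr11:94653767-94660089, plus strand), whose bacterial counterpart reaches the peptidyl transferase centre, was at 23.5, 23.8, 34.3, 28.2 and 28.4 CPM in dorsal and 37.2, 44.4, 59.4, 40.9 and 50.4 in ventral libraries, with a log2 fold change of -0.73 ± 0.16 (adjusted p = 0.00382, edgeR). All ventral values of these genes lay above the highest dorsal one.

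**Figure D4:**
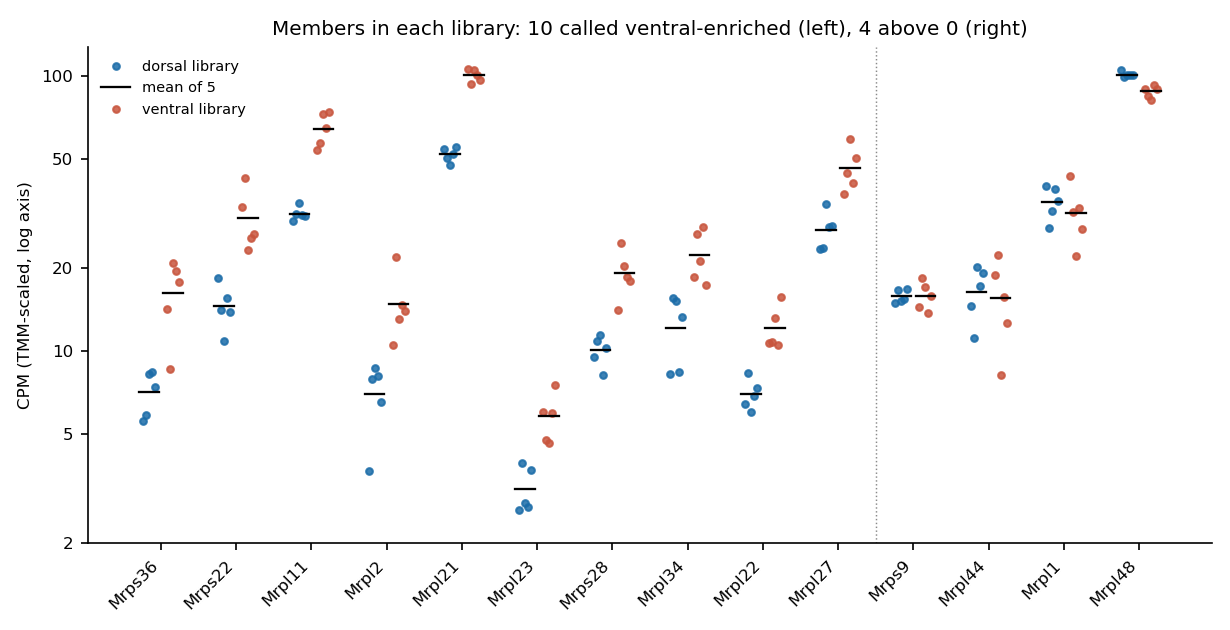
CPM (y axis, log scale) in each dorsal (blue) and ventral (red) library for the 10 called members with the largest differences and no overlap, and for the 4 members with a log2 fold change above 0. Bars are means of 5 libraries. The groups are apart in all 10 genes on the left, and on the right in Mrpl48 alone, where dorsal libraries are higher.

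The other 11 called members had fitted levels 1.52 to 1.90 times higher in ventral libraries. Those of the large subunit were Mrpl54 (log2 fold change -0.85), Mrpl41 (-0.73), Mrpl28 (-0.73), Mrpl58 (-0.71), Mrpl20 (-0.63) and Mrpl43 (-0.61), and those of the small subunit were Mrps35 (-0.93), Mrps33 (-0.80), Mrps16 (-0.76), Mrps25 (-0.70) and Mrps24 (-0.66). Mrpl58, a peptidyl-tRNA hydrolase that frees stalled mitoribosomes, ranged from 34.1 to 42.6 CPM in dorsal and from 52.2 to 65.1 CPM in ventral libraries (adjusted p = 0.000676, edgeR). Mrpl41, one of the most abundant members per kilobase, ranged from 32.1 to 40.7 and from 51.8 to 68.4 CPM (adjusted p = 0.000646, edgeR). The groups overlapped in Mrps35, Mrpl54, Mrps33, Mrps16 and Mrpl43. For Mrps33 ventral replicate 1 stood at 208 CPM while the other ventral libraries lay between 83.5 and 86.3 CPM, dorsal replicate 2 reached 89.5 CPM, and without ventral replicate 1 its log2 fold change was -0.42 (adjusted p = 0.067, edgeR) and not called. The call of Mrps33 was also lost without dorsal replicates 1, 3, 4 or 5, with adjusted p from 0.0605 to 0.0736. Calls were lost for Mrpl28 without dorsal replicate 1, and for Mrpl20 without dorsal replicates 2 or 3 or ventral replicate 5. That of Mrpl43 was lost without dorsal replicate 2 or ventral replicate 3, and that of Mrps24 without dorsal replicates 2 or 5 or ventral replicates 4 or 5. The log2 fold changes in these fits ran from -0.49 to -0.63. Calls of Mrpl20, Mrpl43 and Mrps24 were also lost with DESeq2, with its size factors, with a filter on at least 5 libraries and with protein-coding genes alone. The call of Mrps24 was lost with total counts as well. Mrps25, Mrpl43 and Mrps24 share 69.8%, 33.4% and 15.4% of their exonic length with Nr2c2, Twnk and Urgcp, so that their counts may hold or miss reads of those genes.

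Single members ranged from a log2 fold change of -1.19 to 0.20. A further 18 members had an adjusted p below 0.05 with edgeR on the ventral side and did not pass the fold threshold. That threshold was set on the log2 ratio of group means. The log2 fold changes of these members ran from -0.37 in Mrpl49 to -0.63 in Mrpl15, where the ratio was -0.57. Among these members were Mrpl12, counterpart of the bacterial L7/L12 stalk protein (-0.46 ± 0.17, adjusted p = 0.0473, edgeR), and Mrps12, which lies in the decoding centre (-0.50 ± 0.14, adjusted p = 0.0144, edgeR). With correction for GC content and length neither passed the test, at -0.23 for Mrpl12 (adjusted p = 0.262) and -0.20 for Mrps12 (adjusted p = 0.197). With this correction 30 members (39.5%) in place of 39 had an adjusted p below 0.05 on the ventral side, against 15.3% of all tested genes. Among the other 37 tested members 33 had a log2 fold change below 0 and 4 above it. Mrpl48, a mitochondrial protein of the large subunit, was the member with the highest value, at 105, 99.4, 101, 101 and 101 CPM in dorsal and 90.3, 84.8, 82.3, 93.0 and 90.2 in ventral libraries. No dorsal library overlapped a ventral one, and the log2 fold change of 0.20 ± 0.09 did not pass the test (adjusted p = 0.103, edgeR), whereas DESeq2 gave an adjusted p of 0.013. The groups overlapped in the 3 others above 0, at 0.12 ± 0.17 for Mrpl1 (34.9 ± 4.81 CPM in dorsal and 31.8 ± 7.83 in ventral libraries), 0.09 ± 0.24 for the RNase III-like Mrpl44 (16.5 ± 3.69 and 15.6 ± 5.49 CPM) and 0.01 ± 0.15 for Mrps9 (15.8 ± 0.859 and 15.9 ± 1.89 CPM), with SD over 5 libraries.

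Mammals carry 3 genes for relatives of the bacterial S18 protein, and these differed in level and in fold. Mrps18a, which sits in the large subunit, was at 25.5, 24.6, 27.1, 32.7 and 29.8 CPM in dorsal and 42.7, 40.0, 32.4, 47.4 and 46.4 in ventral libraries. Only dorsal replicate 4 and ventral replicate 3 overlapped. The log2 fold change was -0.59 ± 0.14 (adjusted p = 0.00691, edgeR), and -0.39 after correcting for GC content and length. The log2 ratio of group means, on which the fold threshold was set, was -0.56 and stayed short of it. Mrps18c, of the small subunit, had a higher level per kilobase and was at 45.6 ± 7.28 CPM in dorsal and 47.3 ± 6.30 in ventral libraries, with a log2 fold change of -0.05 ± 0.14 (adjusted p = 0.82, edgeR). Mrps18b was near the lower end, at 1.72 ± 0.598 and 1.96 ± 0.762 CPM, and its log2 fold change of -0.15 was smaller than the standard error of 0.41. Their differences from one another were not tested.

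Levels per kilobase of exonic length spanned from 0.883 to 120 CPM per kb among tested members, with a median of 10.8. The 5 most abundant were Mrpl18 (120 CPM per kb), whose protein has also been linked to 5S ribosomal RNA import, Mrpl50 (88.8), Mrpl41 (54.1), Mrps33 (52.0) and Mrps21 (48.5). Of these Mrpl41 and Mrps33 were called, while Mrpl18 had a log2 fold change of -0.47 ± 0.15 (adjusted p = 0.0238, edgeR, but 0.136 after correcting for GC content and length), Mrps21 one of -0.45 ± 0.18 (adjusted p = 0.0637, edgeR) and Mrpl50 one of -0.12 ± 0.13 (adjusted p = 0.502, edgeR). The 3 lowest that were tested were Mrps18b (0.883 CPM per kb), Mrpl23 (0.914) and Mrps35 (2.23). Called members had a median exonic length of 1520 bp and a median GC content of 52.3%, and tested members not called 2703 bp and 49.4%. With level corrected for GC content and exonic length in each library, 15 members (19.7%) were called ventral-enriched, against 9.35% of all tested genes. Of these 8 were of the large and 7 of the small subunit. A log2 fold change below 0 was found in 72 members (94.7%), against 48.5% of all tested genes. The median with this correction was -0.38 over the members and 0.024 over all genes. Mrpl20, Mrpl23, Mrpl28, Mrpl34, Mrpl41, Mrpl43, Mrpl54 and Mrps24 were not called then, and Mrpl15 and Mrpl32 were. Members that failed the expression filter were Mrpl53, with no count in any library, and Mrps34, at 0 to 0.204 CPM in dorsal and 0 to 0.822 in ventral libraries, which share 88.0% and 77.8% of their exonic length with other annotated genes.

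Promoter sequences, the 250 bases before and 50 after a gene's start in RefSeq annotation of GRCm38.p6, were matched for 69 of the 78 members. They were searched on both strands for motifs of factors known to act on genes of mitochondrial proteins: NRF1 (GCGC, then A and 1 free base, then GCGC), the ETS family that includes GABP (CCGGAAG) and YY1 (AANATGGCG). The ETS motif was found in 24 members (34.8%) against 11% of all 20586 promoters and 17.1% of those of tested protein-coding genes. The NRF1 motif was found in 13 members (18.8%) against 5.92% and 10.2%, and the YY1 motif in 11 (15.9%) against 3.03% and 5.06%. Of the 18 called members with a promoter 8 held the ETS, 0 the NRF1 and 3 the YY1 motif, and of the 50 tested members not called these numbers were 15, 13 and 8. Any of these motifs was present in 9 of the called members (50%) and in 30 of those not called (60%). The NRF1 and the ETS motif occurred together in some members, the counts are a description of these letters, and no test of a difference was made. The following stretches are the 150 bases before the start, 5′ to 3′ on the gene's strand, for 3 called members with the ETS motif and for Mrpl45, a member not called (log2 fold change -0.24 ± 0.22, adjusted p = 0.423, edgeR) with the NRF1 motif. Mrpl45 helps to hold the mitoribosome at the inner membrane. Capitals mark motif bases, and in Mrpl58 the last capitals begin a match that runs past the start. The stretches lie at chr9:98601680-98601829 (Mrps22, minus strand), chr8:71464776-71464925 (Mrpl34, plus strand), chr11:115403602-115403751 (Mrpl58, plus strand) and chr11:97315566-97315715 (Mrpl45, plus strand).
Mrps22: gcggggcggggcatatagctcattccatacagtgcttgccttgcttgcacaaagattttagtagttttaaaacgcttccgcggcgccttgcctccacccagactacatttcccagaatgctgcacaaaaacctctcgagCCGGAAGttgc
Mrpl34: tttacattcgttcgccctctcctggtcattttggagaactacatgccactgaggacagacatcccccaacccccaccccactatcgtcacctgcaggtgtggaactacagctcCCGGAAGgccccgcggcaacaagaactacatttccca
Mrpl58: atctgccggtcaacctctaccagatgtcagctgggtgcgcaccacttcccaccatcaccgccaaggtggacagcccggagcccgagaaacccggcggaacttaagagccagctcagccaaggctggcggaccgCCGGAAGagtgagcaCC
Mrpl45: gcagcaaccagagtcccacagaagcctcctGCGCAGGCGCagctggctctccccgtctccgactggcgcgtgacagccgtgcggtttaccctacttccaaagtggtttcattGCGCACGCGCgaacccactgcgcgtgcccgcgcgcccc
The called members have 1 full ETS match each in this stretch, nearest to the start in Mrps22 and Mrpl58, and Mrpl45 has a pair of NRF1 matches in this stretch.

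Some members lie head to head with another gene, and the share of all genes that do so was not counted. For 26 of the 78 members a protein-coding gene on the other strand starts within 1000 bp upstream or overlaps the start by at most 500 bp, and Mrpl46 and Mrps11 are such neighbours of each other. Of the 23 tested partners that are no members, 7 were called ventral-enriched and 1 dorsal-enriched, against 9.85% and 15.7% of all tested genes. With the adjusted p alone, 7 were higher in ventral and 4 in dorsal libraries, against 2454 and 3191 of 16806 tested genes. A log2 fold change below 0 was found in 17 partners, against 50.4% of tested genes, and the median was -0.29. The partners called ventral-enriched included Psma2, a proteasome subunit beside Mrpl32 (-0.80 ± 0.11), and Ndufs6, a complex I subunit beside Mrpl36 (-0.83 ± 0.12). The largest differences were in Ska3 beside Mrpl57 (-2.56 ± 0.43) and Eme2 beside Mrps34 (-2.52 ± 0.41), with low dorsal means of 0.780 and 0.585 CPM. Fau, Ptcd2 and Zfp661 were called as well. The dorsal-enriched partner was Pnpla7, a lysophospholipase that starts 935 bp from Mrpl41, at 1.70 ± 0.41, while Mrpl41 was at -0.73 ± 0.12. Mrps11 and Mrpl46 had log2 fold changes of -0.71 ± 0.30 and -0.44 ± 0.20 and did not pass the test (adjusted p = 0.0793 and 0.098, edgeR). Head-to-head genes whose first exons overlap may share reads, since the counting is not stated to use strand.

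Genes that act with the mitoribosome were described from 5 lists, in which 12 of 83 tested genes were called ventral-enriched (14.5%, against 9.85% of all tested genes), 1 was called dorsal-enriched (against 15.7%), 63 had a log2 fold change below 0 and the median was -0.29. The count of 12 was lower without some libraries, at 5 without dorsal replicate 4 or dorsal replicate 5 and 7 without ventral replicate 5. Among mitoribosomal proteins under other names, Gadd45gip1, which is also known as CRIF1, was called ventral-enriched, at 2.04 ± 0.456 CPM in dorsal and 4.46 ± 1.44 in ventral libraries (log2 fold change -1.14 ± 0.32, adjusted p = 0.0161, edgeR). Aurkaip1 (-0.55 ± 0.17, adjusted p = 0.0255, edgeR) stayed short of the fold threshold and was at -0.29 (adjusted p = 0.194) after correcting for GC content and length, and the GTP-binding Dap3 (-0.28), the pentatricopeptide protein Ptcd3 (-0.33) and Chchd1 (-0.31) did not pass the test, with adjusted p from 0.115 to 0.23 in edgeR.

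Translation factors of mitochondria had a median log2 fold change close to that of the members, -0.45. Of 15 factors 5 (33.3%) were called ventral-enriched, against 9.85% of all tested genes, and 13 were below 0 (86.7%, against 50.4%). Tufm, the elongation factor that brings aminoacyl-tRNA to the mitoribosome, was at 4.23, 7.41, 8.93, 7.33 and 7.31 CPM in dorsal and 9.77, 12.1, 11.6, 13.6 and 15.6 in ventral libraries (-0.82 ± 0.22, adjusted p = 0.012, edgeR). Mtrf1, of the release factor family, was at 4.70, 8.84, 6.68, 5.95 and 5.34 CPM in dorsal and 12.6, 10.3, 22.7, 15.9 and 17.6 in ventral libraries (-1.30 ± 0.25, adjusted p = 0.00187, edgeR). Neither gene overlapped between the groups, and both calls held without any 1 library. The release factor Mtrf1l (-0.89) and the formyltransferase Mtfmt (-0.70) overlapped, and their calls were lost in 5 and 7 of the 10 fits that left out a library, with adjusted p up to 0.0655 and 0.0866 in edgeR, and Mtfmt was not called after correcting for GC content and length. Pdf, the deformylase, was at 0 to 0.0941 CPM in dorsal, below the level of 3 counts, and at 0 to 2.91 CPM in ventral libraries. The dorsal libraries held 0 or 1 counts, so that no fold is given, and 80% of its exonic length is shared with Cog8 and Vps4a. Pdf is among the 5 called factors. Set to the dorsal floor of 3 counts, Pdf stayed on the ventral side of the list median, so that the median of -0.45 could not change. The most abundant factors per kilobase, C1qbp (-0.39 ± 0.17) and the initiation factor Mtif2 (-0.26 ± 0.13), did not pass the test (adjusted p = 0.0839 and 0.138, edgeR).

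The other lists lay closer to 0. Of 28 genes for mitoribosome assembly and rRNA modification the median was -0.16, and 5 (17.9%) were called ventral-enriched, against 9.85% of all tested genes. These were the putative pseudouridine synthase Rpusd4 (-1.19), the rRNA methyltransferases Nsun4 (-1.07) and Mrm2 (-0.97), the small subunit assembly factor Rbfa (-0.67) and Malsu1 (-0.67), which acts late on the large subunit. Each of them lost its call in 2 to 7 of the 10 fits without 1 library, with adjusted p up to 0.113 in edgeR, Mrm2 and Rbfa were not called after correcting for GC content and length (adjusted p = 0.0637 and 0.0907), and Malsu1 had a log2 fold change of -0.45 without ventral replicate 3, where it stood at 117 CPM. Malsu1 and Ngrn (-0.30, adjusted p = 0.0997, edgeR) were the most abundant per kilobase. Of 20 aminoacyl-tRNA synthetase genes 0 were called ventral-enriched with edgeR (2 at an unadjusted p below 0.05) or with DESeq2, against 9.85% of all tested genes. The median was -0.11, and 1 gene (5%, against 15.7%), the cysteinyl-tRNA synthetase Cars2, was called dorsal-enriched. Cars2 was at 1.41, 13.1, 11, 5.71 and 9.04 CPM in dorsal and 5.05, 3.96, 2.53, 3.67 and 3.73 in ventral libraries (1.11 ± 0.40, adjusted p = 0.0439, edgeR), and its call was lost in 7 of the 10 fits without 1 library. Dorsal replicate 1 lay below every ventral library and the other 4 dorsal libraries above every ventral one. The most abundant of this list, Lars2 (-0.31) and Gatc (0.06), did not pass the test (adjusted p = 0.134 and 0.795, edgeR). Of 15 tested genes for mitochondrial transcription and RNA handling the median was -0.14, and 1 (6.67%) was called ventral-enriched, against 9.85% of all tested genes. This was the poly(A) polymerase Mtpap, at 20.1 ± 1.21 CPM in dorsal and 30.7 ± 2.29 in ventral libraries (-0.61 ± 0.13, adjusted p = 0.00335, edgeR). Its log2 fold change was -0.56 to -0.60 and no longer called without dorsal replicates 4 or 5 or ventral replicates 1 or 3. In the same list Grsf1 (-0.35, adjusted p = 0.0251, edgeR) stayed short of the fold threshold, and Lrpprc was at -0.04 (adjusted p = 0.818, edgeR).

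**Figure D5:**
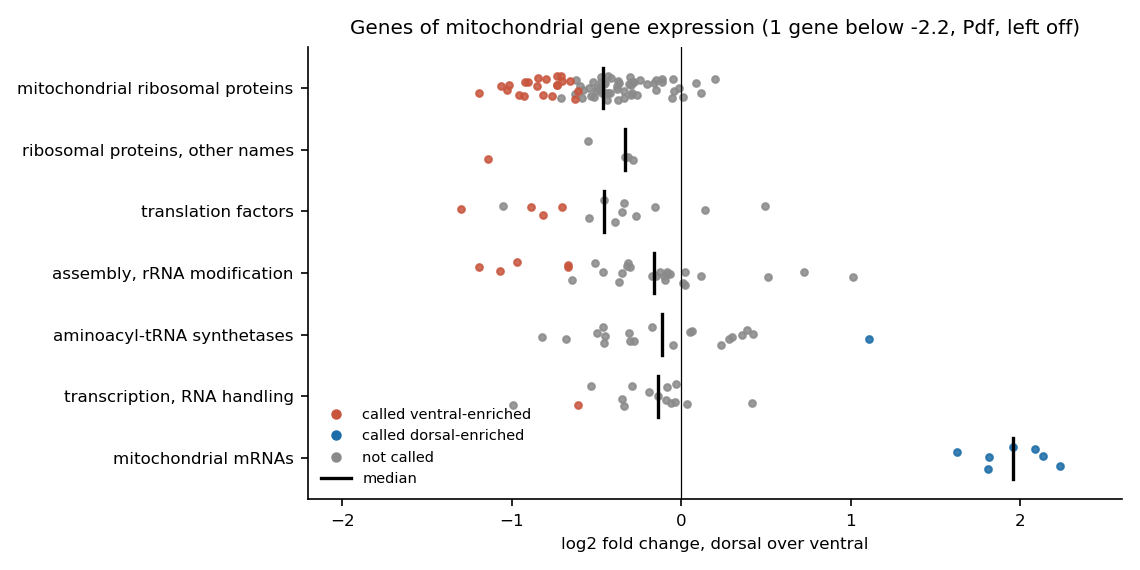
Log2 fold change of dorsal over ventral level (x axis) for each tested gene of the members and 6 related lists (rows), with the median as a bar. Medians run from -0.46 for the members and -0.45 for translation factors to -0.11 for synthetases, and the 7 tested mitochondrial mRNAs lie at 1.63 to 2.23. Vertical scatter within a row has no meaning.

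The mRNAs that mitoribosomes translate went the other way. Of 13 protein genes of the mitochondrial genome 7 passed the filter, and all 7 were called dorsal-enriched, against 15.7% of all tested genes. With correction for GC content and length 6 of 7 were called, against 15.3%. Their median log2 fold change was 1.96, and 1.02 with the correction, at a summed level over the 13 genes of 2773 to 3524 CPM in dorsal and 447 to 1257 in ventral libraries. These RNAs lie within mitochondria and are not held by cytosolic ribosomes, so that their level here does not measure what mitoribosomes of the tagged cells translate. How they came into the libraries was not tested. Of 75 tested cytosolic ribosomal protein genes 4 (5.33%) were called ventral-enriched, a smaller share than the 9.85% of all tested genes, while 70 had a log2 fold change below 0 and the median was -0.30.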

How the data were processed

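Each of the 10 TRAP libraries has 1 deposited file of raw counts, as whole numbers by Ensembl identifier. The authors amplified 500 pg of RNA (Ovation V2), sequenced 50 bp paired ends, aligned them with STAR 2.5.2b to GRCm38 and counted with HTSeq 0.7.2, per the labels; strand setting and annotation release are not given in the sources used here. Groups and replicate numbers came from the sample titles, and p-values measure the spread between pools. The 5 summary rows of each file stayed out. Symbols, coordinates and exonic lengths came from GENCODE M21 of GRCm38, which matched 54809 of 54838 identifiers. The members and gene lists were chosen with earlier results of these data known.

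Genes that exceeded 1 CPM in 2 or more libraries entered the fit, scaled by TMM and tested, dorsal against ventral, with the quasi-likelihood test of edgeR 4.0.16 (R 4.3.3), with Benjamini-Hochberg adjustment over 16806 genes. Standard errors are the log2 fold change over the square root of F. Amplified reads are not independent molecules, so that the floor of 3 counts covers counting error alone. No library was a copy of another, as chi-square over degrees of freedom lay between 4.36 and 45.1 for pairs within a group. The fit was tested on simulated data. Named genes were all called members (the 10 largest without overlap per direction in full), the 5 highest and 3 lowest per kilobase, members above 0 or not tested, the Mrps18 genes, mitoribosomal proteins under other names, and called and 2 most abundant genes of 4 pathway lists; other genes were chosen after their values were seen. Alternatives were DESeq2 1.42.0 and its size factors, total counts, other filters, protein-coding genes alone, other fold rules, correction for GC content and length (mgcv 1.9.3), a replicate block and leaving out each library, and, chosen after seeing the data, the dispersions of edgeR 3 and subunits by structure.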

Additional observations from a re-analysis of the deposited data

Results flagged for a closer look

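Of 160 groups of 5 libraries (76 genes and 4 sums or ratios over the subunits, in 2 groups), 4 held a value far from the rest, where chance flags about 1 in 20 groups. Mrps33 stood at 208 CPM in ventral replicate 1, and the next library was at 86.3 CPM. Mrpl9 was at 27.0 CPM in dorsal replicate 1 against 16.8 CPM in the next, and Mrpl3 at 77.9 CPM in the same library against 58.4 CPM. Mrps25 was at 34.6 CPM in dorsal replicate 4 against 32.5 CPM in the next library. Of these genes Mrps33 and Mrps25 were called ventral-enriched, and the call of Mrps33 was lost without the library that stood apart (adjusted p = 0.067, edgeR) and without dorsal replicates 1, 3, 4 or 5.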

How the results depend on the processing

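Of the 21 called members, 12 were called in all 20 alternatives run for single genes, and all 21 had a negative log2 fold change in each of them. Over the 76 tested members, 8 had another sign in at least 1 alternative. Without any fold threshold 39 members were called ventral-enriched, 26 of the large and 13 of the small subunit, by construction. With the threshold set on the edgeR log2 fold change, Mrpl15 (-0.629), Mrpl55 (-0.623), Mrpl33 (-0.597), Mrps18a (-0.588) and Mrps15 (-0.582) were called as well. With correction for GC content and length the median log2 fold change was -0.378 over the members, -0.387 for the large and -0.322 for the small subunit, and 8 large subunit genes were called. With the replicate block and this correction together the medians were -0.346, -0.375 and -0.308, 8 large subunit genes were called, and the pathway lists had 6 genes called ventral-enriched and 0 dorsal-enriched. The cause of these moves was not tested. Same-numbered libraries did not deviate together (correlations of -0.032 to 0.069, 3 of 10 libraries closest to their own number), and although dorsal and ventral parts came from the same set of mice, no source used here says that equal numbers mark the same mice, so that the libraries were not treated as paired. The block alone left 20 members called, moved the pathway count on the dorsal side to 0 and on the ventral side to 11, and Mrps33 was not called (adjusted p = 0.075, edgeR). The dispersions of edgeR 3 also gave 0 pathway genes on the dorsal side. With Mrps18a and Mrps30 in the large subunit and without Mrps36, the ratio of large to small was 2.25 in dorsal and 2.27 in ventral libraries, as construction moves genes between the sums. Leaving out 1 library gave 19 to 24 called members, 12 to 16 of the large and 6 to 10 of the small subunit, 0 on the dorsal side in each, and medians of -0.475 to -0.435, -0.485 to -0.434 and -0.462 to -0.381. The ratios were then 2.07 to 2.11 and 2.06 to 2.13, and the pathway lists had 5 to 12 genes ventral-enriched and 0 to 1 dorsal-enriched. Mrps34 and Mrpl53 lay at or near 0 counts, and the part of depth and of shared exons in this was not tested.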

Other observations

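The symbol pattern also fits 5 processed pseudogenes, which are not protein-coding and were left out. Mrpl23-ps1 was at 1.34 ± 0.376 CPM in dorsal and 2.11 ± 0.637 in ventral libraries, beside 3.14 ± 0.601 and 5.78 ± 1.18 CPM for Mrpl23 (SD, n = 5). Mrps36-ps1 was at 1.18 ± 0.689 and 0.983 ± 0.448 CPM, and Mrpl48-ps at 0.789 ± 0.365 and 0.674 ± 0.462 CPM, while Mrps36-ps2 and Mrps36-ps3 were at or below 3 counts in most libraries. Reads of these copies and of their parent genes may be exchanged in alignment, and their part in the values of Mrps36, Mrpl23 and Mrpl48 was not tested.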
